A study of Homo sapiens with 9 samples.

Results

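The kinetochore is the protein machine that ties each chromosome to the spindle during mitosis, and the 41 genes described here encode its parts, the centromere it is built on and the checkpoint that watches over it. The genes were taken from a list of symbols, by the symbol in the authors' deposited table, and followed through 64253 gene identifiers in the count files. The rule itself uses symbols only, but the members were chosen with earlier results of these data known. Of the 41, 40 had at least 1 count in some library and 39 were abundant enough to test, among 16561 genes tested in all. The untested pair was SKA1 and SPC25.

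RNA was sequenced from IMR90 cells, a strain of human fetal lung fibroblasts with a limited life span in culture, in 3 groups of 3 libraries lettered a, b and c. Control cells carried a pLKO.1 lentiviral vector with no hairpin, which the sample labels call empty and the treatment protocol calls a GFP vector. The shRRM2 cells carried a lentiviral hairpin that targets RRM2, a subunit of the ribonucleotide reductase that supplies deoxyribonucleotides for DNA synthesis, and the labels describe them as senescent. The shRRM2/shp16 cells carried that hairpin and a second one against p16, the CDK4 and CDK6 inhibitor that CDKN2A encodes, and are labelled as having bypassed senescence. All 3 groups were kept at 2% oxygen, used at population doubling 30 and selected with 3 ug/mL puromycin for 7 days, and where there were 2 infections the second followed the first by 24 hours. No group carried the p16 hairpin alone, and a single cell strain was used. The labels do not say whether the 3 libraries of a group came from separate cultures, so the p-values measure the spread between these libraries, which may be technical.

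Gene counts ran from 15770895 to 24873291 per library. RRM2 itself stood at 485 ± 5.2 CPM (counts relative to the TMM-scaled library size; SD, n = 3 here and below) in control, 62.1 ± 1.9 in shRRM2 and 177 ± 3 in shRRM2/shp16, so the level in the doubly treated cells lay between the other groups. CDKN2A stood at 6.02 ± 0.11, 6.50 ± 0.46 and 4.28 ± 0.32 CPM in the same order. All 10 fibroblast markers examined reached 1 CPM in each group, with summed levels of 37940 to 39110 CPM in control, 40940 to 41890 in shRRM2 and 29470 to 30140 in shRRM2/shp16. Of 5 blood cell markers only CD68 reached 1 CPM and CD3E was at 0 throughout, while 2 of 5 epithelial markers (KRT5 at 0) and 3 or 4 of 5 endothelial markers reached it. The endothelial sum was 65.3 to 70.5 CPM in control, 67.8 to 73.0 in shRRM2 and 115 to 124 in shRRM2/shp16, most of it TEK, and the epithelial sum was 23.9 to 25.2, 12.1 to 13.4 and 3.29 to 5.21. Reads outside annotated genes also moved with the groups, at 17.6% to 18.9%, 27.7% to 28.8% and 23.5% to 24.4% of uniquely aligned reads. The part of these shifts in the results below was not tested.

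Kinetochores assemble on nucleosomes that carry CENP-A, a histone H3 variant that marks the centromere and that the chaperone HJURP and the Mis18 proteins deposit after mitosis. On this base sits the constitutive centromere-associated network, or inner kinetochore, which recruits the outer kinetochore, whose NDC80 complex grips microtubules. Checkpoint proteins hold back the anaphase-promoting complex until every kinetochore is attached, the chromosomal passenger complex corrects faulty attachments, and separase then cuts cohesin. Many of these genes are transcribed mainly in the G2 and M phases, under control of the DREAM and MuvB complexes, which bind a short promoter element named CHR (cell cycle genes homology region).

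Promoter sequence is shown because CHR letters were shared by many of these genes although the gene list did not use sequence. Of the 41 genes, 33 had a promoter window in the RefSeq table (GRCh38.p14), reaching from 250 bases before the start to 50 after it. The start is that of the RefSeq window and can lie inside the GENCODE gene, as it does for CENPA and CENPP. No window was matched for CENPH, KNTC1, BIRC5, CENPM, MIS18A, BUB3, CENPL or TTK. The CHR letters TTTGAA, read on either strand, were in the windows of 18 of the 33 genes (54.5%), against 13.9% of the 10330 other tested genes with a window and 15.2% of all 35116 windows. A variant, TTCGAA, was in 4 of 33 (12.1%), against 2.32% of the other tested genes. Either spelling was in 21 of 33 (63.6%), against 15.7%, and lay within 50 bases of the start in 19 (57.6%), against 4.87%. That distance was chosen after the positions had been seen. The windows below carry the letters in capitals, with up to 30 bases on each side, on the strand of the gene, for 3 of the genes with the largest fall in shRRM2 (CENPA, CDCA8 and ESPL1), for the checkpoint kinase-like gene BUB1B and the passenger scaffold INCENP, and for the variant spelling in OIP5 and BUB1.
CENPA: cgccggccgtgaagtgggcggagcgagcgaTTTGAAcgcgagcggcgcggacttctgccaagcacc
CDCA8: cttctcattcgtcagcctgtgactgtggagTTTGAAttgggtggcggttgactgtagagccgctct
ESPL1: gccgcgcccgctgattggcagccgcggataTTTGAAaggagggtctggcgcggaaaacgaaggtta
BUB1B: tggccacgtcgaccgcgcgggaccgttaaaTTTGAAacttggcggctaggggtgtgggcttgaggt
INCENP: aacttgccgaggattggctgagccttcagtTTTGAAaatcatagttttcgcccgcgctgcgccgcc
OIP5: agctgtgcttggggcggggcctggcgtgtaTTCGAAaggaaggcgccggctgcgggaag
BUB1: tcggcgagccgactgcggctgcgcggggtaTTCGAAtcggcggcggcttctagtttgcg

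On GRCh38.p14 these stretches are chr2:26786008-26786073 (plus strand) for CENPA, chr1:37692463-37692528 (plus) for CDCA8, chr12:53268238-53268303 (plus) for ESPL1, chr15:40161016-40161081 (plus) for BUB1B, chr11:62123971-62124036 (plus) for INCENP, chr15:41332562-41332620 (minus) for OIP5 and chr2:110678034-110678092 (minus) for BUB1. The first letter of the element lay 18 bases before the start in CENPA, 23 before it in both CDCA8 and BUB1B, 31 before it in ESPL1 and 10 before it in INCENP. In OIP5 and BUB1 it lay at base 2 of the transcribed sequence. CCAAT, the box bound by NF-Y, was in 22 of 33 windows (66.7%, against 42.9% of the other tested genes), and an E2F spelling (TTTCCCGC, TTTCGCGC, TTTGCCGC or TTTGGCGC) in 4 (12.1%, against 6.37%), both read on either strand. In CDCA8 1 of the CCAAT matches (read as ATTGG) overlaps the CHR letters. A match describes letters in a window and not binding.

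Every testable gene of the set was lower in the cells with the RRM2 hairpin. In shRRM2 against control, the comparison that asks what the RRM2 hairpin changed, 39 of 39 genes were lower at an adjusted p under 0.05 (edgeR quasi-likelihood test, Benjamini-Hochberg over all tested genes), where 31.8% of all tested genes were called lower, and none was higher, where 29% of all tested genes were. A fall of at least 2-fold was found for 30 of the 39, against 3.26% of all tested genes. The 3 libraries of shRRM2 lay below all 3 of control for 39 of 39, while the groups did not overlap, in either direction, for 63.6% of all tested genes. The median log2 fold change was -1.30, which leaves 40.5% of the control level, and the range ran from -2.20 to -0.35, beside a median of 0.002 over all tested genes. Summed over the genes, the level went from 2719 ± 28.1 CPM in control (2688 to 2742) to 1166 ± 12.5 in shRRM2 (1158 to 1181). In bulk RNA, fewer cells in G2 and M phase and less of these transcripts per cell cannot be told apart.

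Between the 2 hairpin groups the genes differed in direction, and with both hairpins all 39 were below control. A step, fall or rise here and below is a difference between groups of cells, not a change followed in time. In shRRM2/shp16 against shRRM2, the comparison of both hairpins with the RRM2 hairpin alone, 19 of 39 genes were higher, against 31.9% of all tested genes, 6 were lower, against 29.1%, and 14 did not pass the test. RRM2 itself was higher in the double group in this comparison, by 1.51 on the log2 scale, so changes that go with the p16 hairpin and with the RRM2 level cannot be told apart. The 6 lower genes were CENPT, BUB3, DSN1, CENPI, CENPU and CENPO. No gene reached a 2-fold change, the median log2 fold change was 0.11 and the range was -0.69 to 0.78, beside a median of 0.01 over all tested genes. The 2 groups did not overlap for 27 of 39 genes, against 64.7% of all tested genes. With limma on log2(RPKM + 0.1) of the deposited columns 6 genes were called higher, and 20 when the shRRM2 c column, which does not match its count file, was left out. Set against control, shRRM2/shp16 was lower for 39 of 39 genes, where 32.4% of all tested genes were, and higher for none, where 30% were. The fall reached 2-fold for 27 (6% of all tested genes), the groups did not overlap for 39 of 39 (66.2% of all tested genes), and the median log2 fold change was -1.16, or 44.7% of control. The summed level in shRRM2/shp16 was 1297 ± 4.09 CPM (1294 to 1302), above every shRRM2 library and below every control library. The 3 comparisons share libraries in pairs, so they are not independent of each other.

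**Figure D1:**
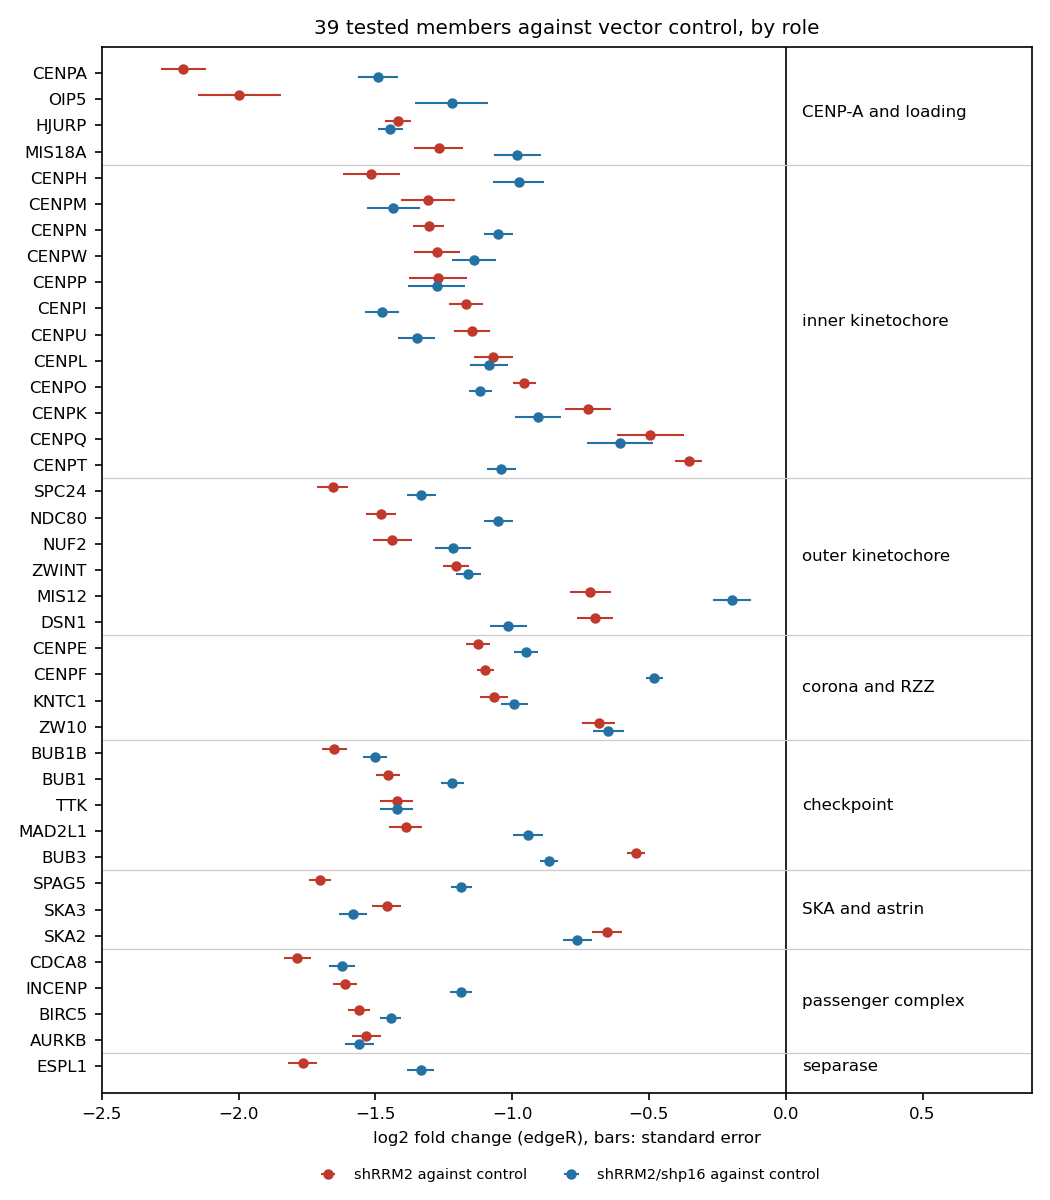
Log2 fold change (edgeR) of each of the 39 tested genes against vector control, in rows grouped by role, for shRRM2 (red) and shRRM2/shp16 (blue); bars are standard errors. Every point lies below 0, from -2.20 (CENPA in shRRM2) to -0.20 (MIS12 in shRRM2/shp16), and the blue point lies right of the red one for CENPA, OIP5, CENPF and MIS12 but left of it for CENPT, DSN1 and BUB3.

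The CENP-A group held the largest falls. CENPA, on chromosome 2 (chr2:26764289-26801067, GENCODE release 29 on GRCh38), measured 31.9, 32.6 and 30.7 CPM in control, 6.09, 6.92 and 7.63 in shRRM2 and 10.5, 11.9 and 11.6 in shRRM2/shp16, in libraries a, b and c. The 3 groups did not overlap: shRRM2 was lowest and the double group lay between. The log2 fold change in shRRM2 was -2.20 ± 0.08 (SE; adjusted p = 8.9e-26, edgeR), a 4.60-fold fall, and the double group was 0.71 ± 0.10 higher than shRRM2 (adjusted p = 4.6e-08, edgeR) and 1.49 below control on that scale. OIP5, the Mis18-beta subunit that helps to license centromeres for new CENP-A, measured 8.38, 8.72 and 9.12 CPM in control, 2.16, 2.60 and 1.78 in shRRM2 and 2.91, 3.98 and 4.30 in shRRM2/shp16, again without overlap. The change was -2.0 ± 0.15 in shRRM2 (adjusted p = 3.7e-15, edgeR) and 0.77 ± 0.18 from shRRM2 to the double group (adjusted p = 2.5e-04, edgeR), the highest of the 39 genes there. OIP5 shares 38.0% of its exon bases with OIP5-AS1 on the opposite strand, and the strand setting of the counting is not given in the sources used here. OIP5-AS1 went the other way in shRRM2, from 72.7 ± 1.6 CPM to 89.5 ± 1.69, and stood at 92.4 ± 3.88 in shRRM2/shp16.

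MIS18A, the Mis18-alpha subunit, had the smallest fall of this group. It measured 18.1, 21.2 and 19.4 CPM in control, 7.93, 8.65 and 7.63 in shRRM2 and 10.6, 9.31 and 9.68 in shRRM2/shp16. The lowest library of the double group, b, lay just above the highest of shRRM2, also b. Its log2 fold change was -1.27 ± 0.09 in shRRM2, and 0.29 ± 0.10 between the 2 hairpin groups (adjusted p = 0.014, edgeR), a call that was lost without shRRM2 c (adjusted p = 0.062) or without shRRM2/shp16 a (0.074). HJURP, the chaperone that deposits CENP-A, fell by 1.42 on the log2 scale in shRRM2 and showed a difference of -0.03 ± 0.05 between the hairpin groups (adjusted p = 0.68, edgeR), which did not pass the test. CENPA, OIP5 and MIS18A were thus higher in the double group than in shRRM2 and HJURP was not called.

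All 12 tested subunits of the inner kinetochore fell in shRRM2, 8 of them at least 2-fold, with a median log2 fold change of -1.16. CENPH, which sits in a complex with CENPI, CENPK and CENPM, measured 13.7, 15.9 and 15.1 CPM in control, 4.70, 5.65 and 5.16 in shRRM2 and 7.61, 8.02 and 6.93 in shRRM2/shp16. The 3 groups stood apart. Its fall was the largest of the group, at -1.51 ± 0.11, and the double group was higher than shRRM2 by 0.54 ± 0.12 (adjusted p = 1.4e-04, edgeR). CENPT, which binds DNA at one end and recruits the NDC80 complex at the other (chr16:67828157-67847811, minus strand), had the smallest fall of all 39 genes. It measured 55.0, 51.9 and 52.7 CPM in control, 40.5, 42.8 and 41.7 in shRRM2 and 25.4, 25.4 and 26.9 in shRRM2/shp16. The order of the groups differed from that of CENPA: control was highest, shRRM2 came next and the double group was lowest, with no overlap. Its log2 fold change was -0.35 ± 0.05 in shRRM2 (adjusted p = 4.3e-08, edgeR). For the double group against shRRM2 it was -0.69 ± 0.06 (adjusted p = 1.3e-14, edgeR), the lowest of the 39. The double group was 1.04 below control on that scale. CENPT shares 10.8% of its exon bases with TSNAXIP1 on the opposite strand, which had 1.05 ± 0.23, 0.71 ± 0.13 and 1.82 ± 0.36 CPM in the 3 groups. It also shares 6.86% with THAP11 and 1.99% with NUTF2 on that strand. Over all libraries these 2 genes had 3442 and 17285 counts, beside 201 for TSNAXIP1 and 6725 for CENPT.

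CENPI was also lower in the double group than in shRRM2. Its levels were 47.3, 43.7 and 44.5 CPM in control, 19.4, 18.7 and 22.2 in shRRM2 and 16.5, 16.5 and 15.9 in shRRM2/shp16. The groups did not overlap, and the step from shRRM2 to the double group was -0.31 ± 0.07 (adjusted p = 3.9e-04, edgeR), beside -1.17 in shRRM2 against control. CENPO and CENPU, both of the CENP-O complex that docks the kinase PLK1, fell by 0.16 ± 0.05 and 0.20 ± 0.08 from shRRM2 to the double group (adjusted p = 0.0027 and 0.024, edgeR). The CENPU call was lost without shRRM2 a or b or without shRRM2/shp16 b (adjusted p of 0.063, 0.10 and 0.24) and with no filter on low counts (0.069). CENPO shares 27.0% of its exon bases with ADCY3 on the opposite strand, a gene that rose by 0.76 in the same comparison. CENPU shares 11.7% with PRIMPOL on the opposite strand, which rose by 0.47 there.

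CENPN, which reads the CENP-A nucleosome directly, was higher in the double group than in shRRM2 by 0.25 ± 0.06 (adjusted p = 6.0e-04, edgeR). CENPN shares 12.8% of its exon bases with CMC2 on the opposite strand, which showed 0.09 in that comparison (adjusted p = 0.21, edgeR). The partner of CENPN, CENPL, showed -0.01 ± 0.08 (adjusted p = 0.89), which did not pass the test. CENPK, CENPM, CENPP, CENPQ and CENPW did not pass it either, with values between -0.18 and 0.14. Among these, CENPQ had the second smallest fall of the 39 genes in shRRM2 (log2 fold change -0.49 ± 0.12, adjusted p = 6.2e-04, edgeR) and CENPP, a gene that shares 38.0% of its exon bases with IPPK on the opposite strand, fell by 1.27. Of the 12 subunits of the inner kinetochore, 2 were higher in this comparison (CENPH and CENPN), 4 lower and 6 not called, with a median of -0.12, beside 31.9% higher and 29.1% lower over all tested genes. The share called lower is near that background.

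The 6 tested outer kinetochore genes all fell in shRRM2, with a median of -1.32. SPC24, a subunit of the inner end of the NDC80 complex, measured 57.9, 55.5 and 58.8 CPM in control, 17.3, 18.8 and 18.5 in shRRM2 and 23.6, 22.2 and 22.6 in shRRM2/shp16. All shRRM2 libraries lay below all those of the double group. Its fall of -1.66 ± 0.06 was the largest of the 6, and the step to the double group was 0.32 ± 0.07 (adjusted p = 4.8e-05, edgeR). NDC80 and NUF2, the microtubule-binding pair of the same complex, fell by 1.48 and 1.44 in shRRM2 and differed between the hairpin groups by 0.43 ± 0.06 (adjusted p = 1.3e-07) and 0.22 ± 0.08 (adjusted p = 0.015, edgeR). The NUF2 call was lost with DESeq2 (adjusted p = 0.055) and without shRRM2 c (0.065).

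DSN1 and MIS12 belong to one complex, the MIS12 complex that links the inner to the outer kinetochore, and they moved in opposite directions from shRRM2 to the double group. DSN1 measured 28.5, 30.9 and 29.2 CPM in control, 18.4, 17.3 and 18.8 in shRRM2 and 14.4, 14.7 and 14.6 in shRRM2/shp16. MIS12, whose libraries are given after its values were seen, measured 20.0, 20.7 and 22.5 CPM in control, 12.4, 13.0 and 13.0 in shRRM2 and 18.4, 18.3 and 18.3 in shRRM2/shp16. For both genes the 3 groups were separate. Both fell by nearly the same amount in shRRM2, with log2 fold changes of -0.70 ± 0.07 and -0.71 ± 0.08. In the double group against shRRM2 DSN1 was lower, at -0.32 ± 0.07 (adjusted p = 3.1e-04, edgeR), whereas MIS12 was higher, at 0.52 ± 0.08 (adjusted p = 2.0e-07, edgeR). In the double group MIS12 was the nearest to control of the 39 genes, at -0.20 ± 0.07 (adjusted p = 0.013, edgeR). This call was lost without control c (-0.16, adjusted p = 0.079) and with limma on log2 RPKM values (-0.10, adjusted p = 0.25). MIS12 shares 9.53% of its exon bases with DERL2 on the opposite strand. ZWINT, which links the outer kinetochore to the RZZ complex, fell by 1.20 in shRRM2 and showed 0.04 ± 0.05 between the hairpin groups, which did not pass the test.

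SPC25, the partner of SPC24, and SKA1 could not be followed. Both symbols belong to 2 gene identifiers in the files. For SPC25 the identifier with more counts, which is not on the primary assembly of GENCODE release 29, had 15, 10 and 8 counts in control, 2, 2 and 0 in shRRM2 and 4, 11 and 6 in shRRM2/shp16, and the other had at most 5 in any library. SKA1 had 0 counts in all 9 libraries under both identifiers, and a count of 0 allows up to 3 counts, or 0.126 to 0.19 CPM, by counting error alone. The 39 tested genes had at least 31 counts in every library. Alignments that were not unique, which the counting assigned to no gene, were 40.3% to 44.9% of all tallied entries, and their part in these low counts was not tested.

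**Figure D2:**
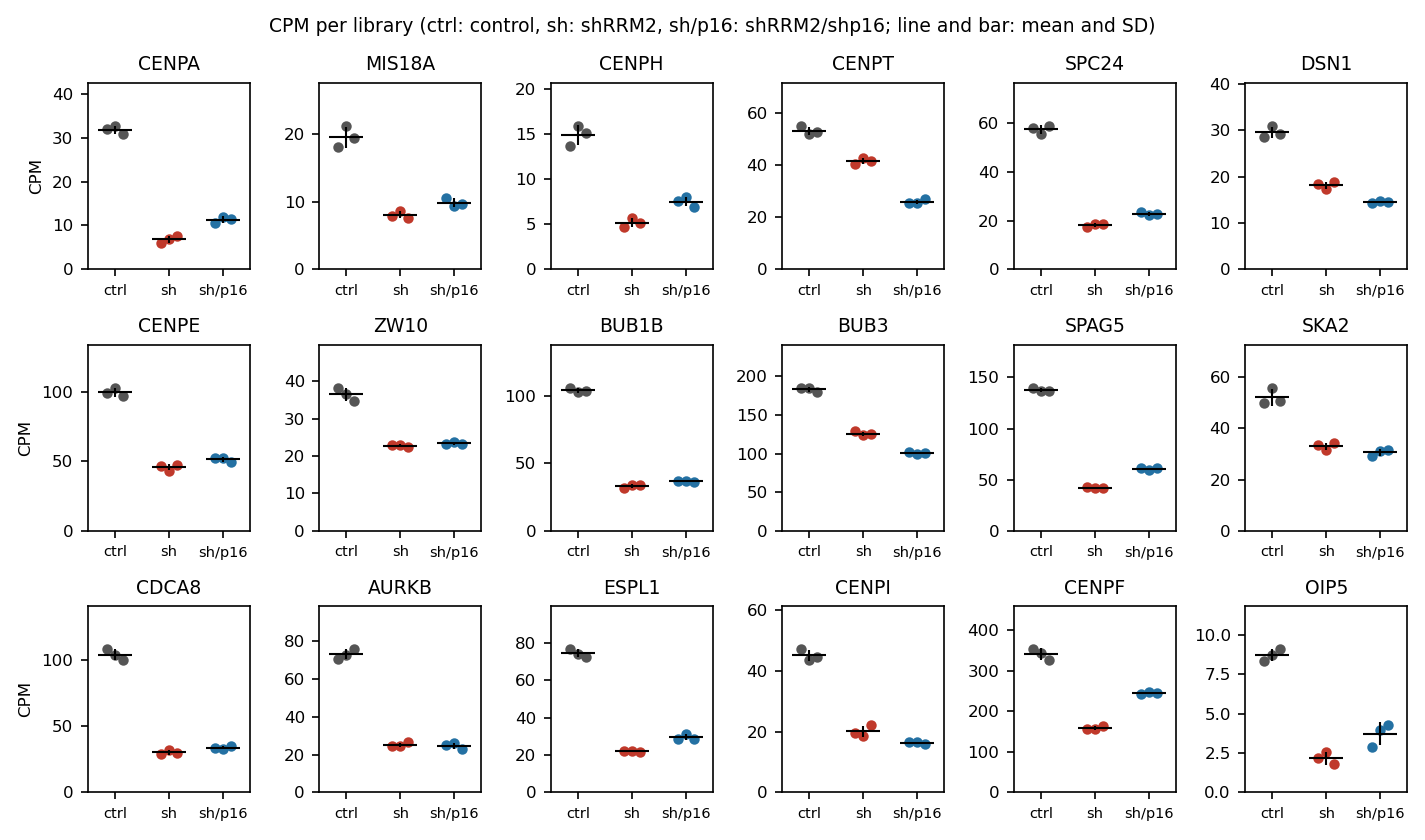
CPM per library (points, a to c within each group) of members with the largest and smallest changes, 1 panel per gene with its own axis from 0, for control, shRRM2 and shRRM2/shp16; lines are the mean and the SD. CENPA stands at 6.09 to 7.63 in shRRM2 and 10.5 to 11.9 in the double group. CENPT is highest in control (51.9 to 55.0), next in shRRM2 and lowest in the double group (25.4 to 26.9).

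The corona, the outermost fibrous layer, held the gene with the highest counts. CENPF, a large coiled-coil protein that accumulates in G2 and coats unattached kinetochores (chr1:214603195-214664588, plus strand), measured 353, 343 and 326 CPM in control, 156, 157 and 165 in shRRM2 and 242, 247 and 244 in shRRM2/shp16. The groups were far apart and did not overlap. Its log2 fold change was -1.10 ± 0.03 in shRRM2. The double group was 0.62 ± 0.03 higher than shRRM2 (adjusted p = 1.1e-20, edgeR) and 0.48 below control on the log2 scale, the second smallest gap of the 39 genes. CENPE, the kinesin that carries chromosomes to the spindle equator, measured 99.3, 103 and 97.1 CPM in control, 46.5, 43.5 and 47.5 in shRRM2 and 52.8, 52.8 and 49.6 in shRRM2/shp16. No groups overlapped. It changed by -1.12 ± 0.04 in shRRM2, close to CENPF, and the double group was 0.17 ± 0.05 higher than shRRM2 (adjusted p = 0.0019, edgeR).

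ZW10 and KNTC1 are subunits of the RZZ complex, which brings dynein and the checkpoint proteins to kinetochores. ZW10 measured 38.3, 36.5 and 34.7 CPM in control, 23, 23 and 22.5 in shRRM2 and 23.1, 23.8 and 23.2 in shRRM2/shp16. The hairpin groups lay side by side, both below control. It fell by 0.68 ± 0.06 in shRRM2 and showed 0.04 ± 0.06 between the hairpin groups (adjusted p = 0.65, edgeR). KNTC1 fell by 1.07 and showed 0.07 ± 0.06 (adjusted p = 0.26, edgeR). Neither passed the test between the hairpin groups.

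Among the 5 checkpoint genes the median in shRRM2 was -1.42. BUB1B, which encodes BubR1 of the mitotic checkpoint complex, measured 106, 103 and 104 CPM in control, 31.5, 33.9 and 34.1 in shRRM2 and 36.7, 37.1 and 36.5 in shRRM2/shp16. Its log2 fold change was -1.65 ± 0.05 in shRRM2. The double group was 0.15 ± 0.05 higher than shRRM2 (adjusted p = 0.014, edgeR), a call lost without shRRM2 a (adjusted p = 0.088), and stood 1.5 below control. BUB3, the WD40 protein that carries BUB1 and BubR1 to the kinetochore and is known to be present through the cell cycle, measured 185, 186 and 180 CPM in control, 129, 124 and 125 in shRRM2 and 102, 99.4 and 101 in shRRM2/shp16. Like CENPT, it was lower in shRRM2 than in control and lower again in the double group, without overlap. The log2 fold change was -0.55 ± 0.03 in shRRM2 (adjusted p = 2.1e-18, edgeR) and -0.32 ± 0.04 for the double group against shRRM2 (adjusted p = 1.7e-10, edgeR).

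MAD2L1, which encodes Mad2, the protein that captures CDC20, fell by 1.39 in shRRM2 and was 0.45 ± 0.07 higher in the double group than in shRRM2 (adjusted p = 1.2e-07, edgeR). BUB1, the kinase that marks centromeric histone H2A, fell by 1.45 and was 0.24 ± 0.05 higher (adjusted p = 6.4e-05, edgeR). TTK, the kinase MPS1 that starts checkpoint signalling, fell by 1.42, and its level with both hairpins was -0.001 ± 0.07 from shRRM2 (adjusted p = 0.99, edgeR), which did not pass the test. Between the hairpin groups 3 of the 5 checkpoint genes were higher, 1 lower and 1 not called, beside 31.9% higher and 29.1% lower over all tested genes, and 5 genes are too few to set against those shares.

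The 3 tested genes of the SKA complex and astrin fell by unequal amounts. SPAG5, or astrin, a spindle and kinetochore protein of aligned chromosomes, measured 140, 137 and 137 CPM in control, 42.9, 42.3 and 41.9 in shRRM2 and 61.1, 59.7 and 61.1 in shRRM2/shp16. The double group lay above shRRM2 in every library and far below control. Astrin changed by -1.70 ± 0.04 in shRRM2 and 0.52 ± 0.04 from shRRM2 to the double group (adjusted p = 1.4e-13, edgeR). SKA2, a subunit of the complex that tracks microtubule ends, measured 49.8, 55.8 and 50.5 CPM in control, 33.3, 31.6 and 34.1 in shRRM2 and 29.2, 31.1 and 31.6 in shRRM2/shp16. The hairpin groups overlapped, since shRRM2 b lay within the double group's range. The fall of SKA2 was -0.65 ± 0.05, that of its partner SKA3 was -1.46 ± 0.05, and the steps to the double group were -0.11 ± 0.06 and -0.12 ± 0.06 (adjusted p = 0.12 and 0.088, edgeR), neither of which passed the test.

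All 4 genes of the chromosomal passenger complex fell about 3-fold in shRRM2. CDCA8, or borealin, measured 109, 104 and 100.1 CPM in control, 28.9, 32.3 and 29.5 in shRRM2 and 33.8, 33.0 and 34.9 in shRRM2/shp16. The hairpin groups were separate by a narrow margin. CDCA8 had the largest fall of the 4, -1.79 ± 0.05 on the log2 scale, and the double group was 0.16 ± 0.06 higher than shRRM2 (adjusted p = 0.013, edgeR). That call was lost without shRRM2 a, shRRM2 c or shRRM2/shp16 c (adjusted p of 0.068, 0.054 and 0.051). AURKB, the kinase of the complex, measured 70.5, 72.6 and 75.7 CPM in control, 24.6, 24.5 and 26.3 in shRRM2 and 25.1, 26.0 and 22.9 in shRRM2/shp16. Its fall was -1.53 ± 0.05, the 2 hairpin groups overlapped, and their difference of -0.03 ± 0.06 did not pass the test (adjusted p = 0.74, edgeR).

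INCENP, the scaffold, fell by 1.61 and was 0.42 ± 0.05 higher in the double group than in shRRM2 (adjusted p = 3.9e-10, edgeR). BIRC5, or survivin, fell by 1.56 and was 0.11 ± 0.04 higher (adjusted p = 0.026, edgeR), a call lost with DESeq2 (adjusted p = 0.081), without shRRM2 b (0.12) and without shRRM2/shp16 b (0.087). ESPL1, which encodes separase, the protease that opens cohesin at anaphase (chr12:53268299-53293643, plus strand), measured 76.8, 74.3 and 72.7 CPM in control, 22.2, 22.1 and 21.6 in shRRM2 and 28.5, 31.5 and 28.8 in shRRM2/shp16. For ESPL1 the log2 fold change was -1.77 ± 0.05 in shRRM2 and 0.43 ± 0.06 for the step to the double group (adjusted p = 5.5e-08, edgeR), without overlap between any 2 groups.

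**Figure D3:**
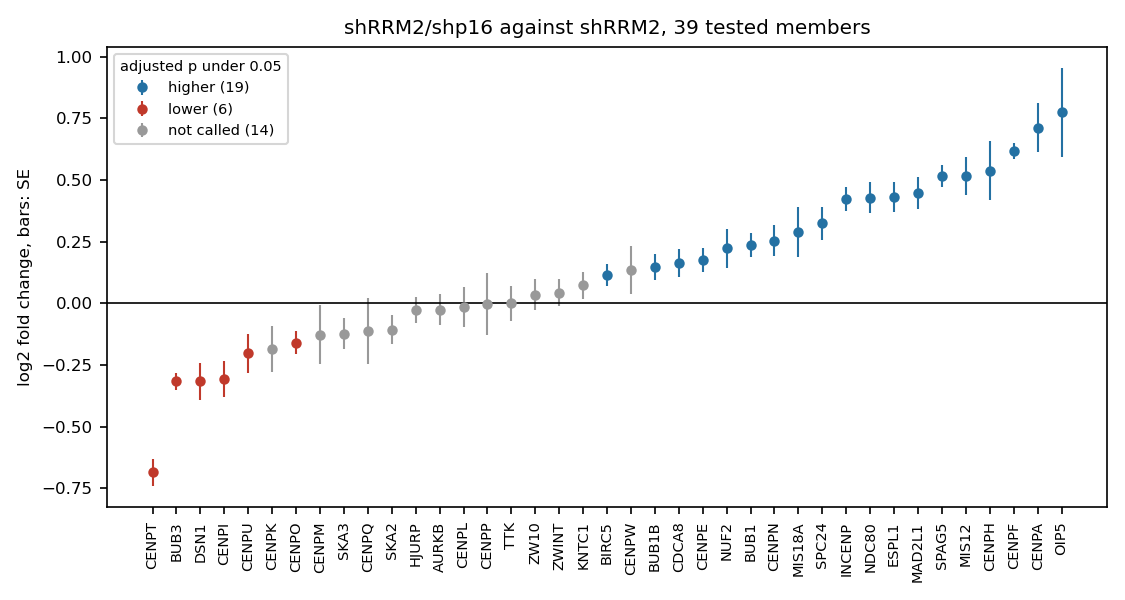
Log2 fold change (edgeR) of shRRM2/shp16 against shRRM2 for each of the 39 tested genes, ordered by value; bars are standard errors and colours show whether the gene was called higher (19), lower (6) or not called (14). OIP5 (0.77) and CENPA (0.71) stand at one end and CENPT (-0.69) at the other.

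Levels per length give another view, since counts grow with transcript length. As RPKM, which is CPM divided by the exon length in kilobases, the order in control began with CDCA8 (42.2 ± 1.71), BIRC5 (38.1 ± 0.34), ZWINT (33.3 ± 0.54) and AURKB (32.5 ± 1.2), of which ZWINT and AURKB lay within their SDs of each other, and ended with CENPQ (4.30 ± 0.30) and CENPP (1.35 ± 0.11). In shRRM2 the order began with BUB3 (15.2 ± 0.34), ZWINT (14.5 ± 0.59) and CENPF (13.6 ± 0.40), and the SD range of ZWINT overlapped those of both BUB3 and CENPF. In shRRM2/shp16 CENPF led with 20.9 ± 0.22, ahead of ZWINT (14.9 ± 0.46). CENPA was in place 17 of 39 in control (16 ± 0.48 RPKM), place 31 in shRRM2 (3.47 ± 0.39) and place 22 in shRRM2/shp16 (5.70 ± 0.38). CENPT went the other way, from place 29 (9.60 ± 0.30) to place 15 (7.52 ± 0.21) and then place 27 (4.68 ± 0.16). BUB3 was in place 11, 1 and 7. These places depend on the length used, here all exon bases of a gene (8300 for BUB3 and 11690 for CENPF). The authors' deposited table, in FPKM (fragments scaled by transcript length and library size), gives another order. In shRRM2/shp16 the authors' deposited table has BUB3 at 69.6, SPAG5 at 55.2, ZWINT at 34.2 and CENPF at 30.6. In GENCODE release 29, 13 of the genes share exon bases with a gene on the opposite strand and 3 with one on the same strand (CENPA, for 6.96% of its exon bases with SLC35F6, BUB1B and SPAG5). Reads that fit 2 genes are tallied as ambiguous and given to neither. Such reads were 3.74% to 6.02% of uniquely aligned reads. Whether an overlap on the opposite strand makes a read ambiguous depends on the strand setting. The part of such reads in these levels was not tested.

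**Figure D4:**
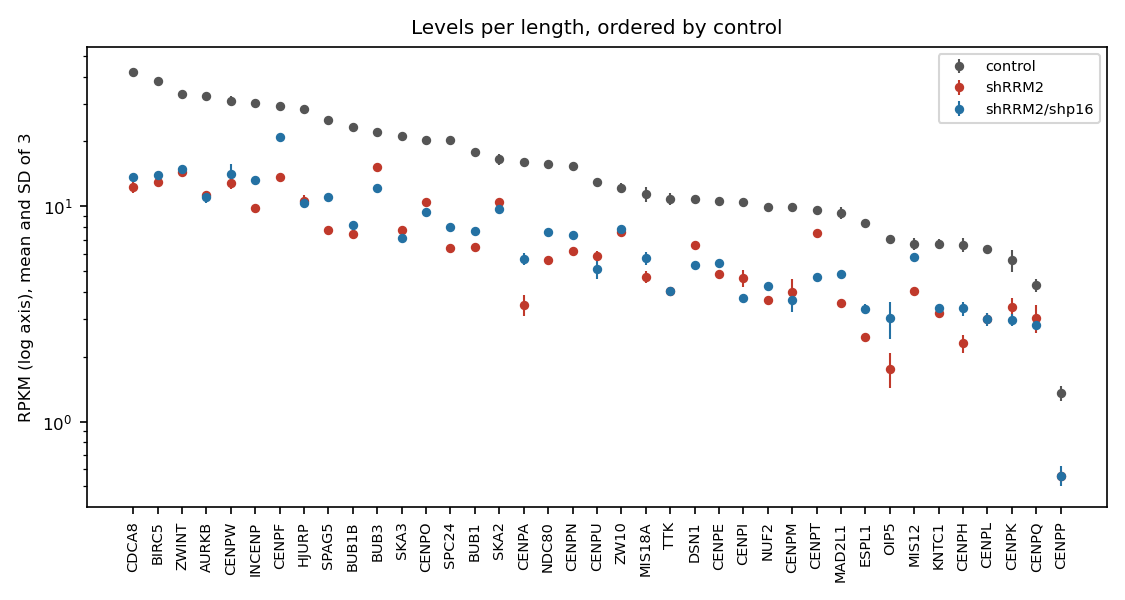
Mean RPKM of the 39 tested genes on a log axis in control, shRRM2 and shRRM2/shp16, ordered by the control level; bars are the SD over 3 libraries. Control spans 1.35 (CENPP) to 42.2 (CDCA8), and the shRRM2 levels span 0.56 (CENPP) to 15.2 (BUB3).

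Fold changes were set beside the promoter letters. The 19 tested genes whose window held TTTGAA or TTCGAA had a median log2 fold change of -1.45 (range -2.20 to -0.68), and the 12 tested genes whose window held neither had a median of -0.92 (range -1.66 to -0.35). The second set included CENPT, CENPQ, DSN1, SKA2 and MIS12, which fell less than 2-fold, but also SPC24 and AURKB, which fell by 1.66 and 1.53. It also held CENPP, with a window match at chr9:92600074-92600138, inside a GENCODE gene that opens at chr9:92325484. Sequence at that gene start was not searched if no window lies there. ZW10 held the letters TTTGAA 224 bases before its start and had the smallest fall of the first set. From shRRM2 to the double group the medians were 0.24 and -0.11. The 2 sets overlapped in both comparisons. For TTTGAA alone the medians in shRRM2 were -1.45 with the letters and -1.15 without. For TTCGAA alone they were -1.47 (4 genes) and -1.27, for CCAAT -1.30 and -1.30, and for an E2F spelling -1.57 (4 genes) and -1.30. From shRRM2 to the double group they were 0.24 and -0.03 for TTTGAA, 0.33 and 0.04 for TTCGAA, 0.16 and 0.01 for CCAAT, and 0.61 and 0.14 for E2F. The splits were described and not tested, and genes without a window were left out.

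**Figure D5:**
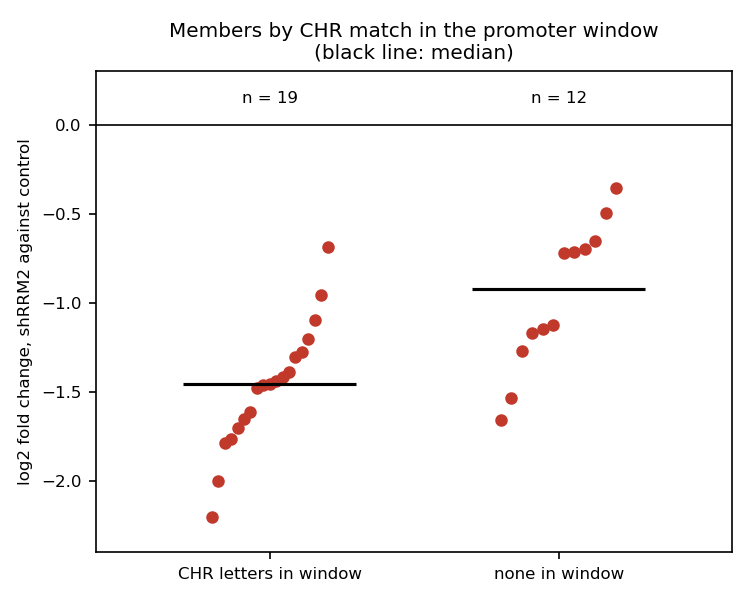
Log2 fold change (edgeR) in shRRM2 against control for the 31 tested genes with a RefSeq promoter window, split by whether the window holds TTTGAA or TTCGAA on either strand (19 genes) or neither (12 genes); each point is a gene and the line is the median. The medians are -1.45 and -0.92, and the ranges overlap between -1.66 and -0.68.

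A wider list of 28 other kinetochore, centromere and checkpoint genes fell less evenly. In shRRM2 against control 24 of the 28 were lower, 10 of them at least 2-fold, 1 was higher and 3 did not pass the test (CENPC, CENPV and CLASP2), with a median log2 fold change of -0.73, beside 31.8% of all tested genes lower, 3.26% lower by at least 2-fold and 29% higher. The lowest 3 were CDC20, the anaphase-promoting complex activator that the checkpoint inhibits (-2.10, from 152 to 35.4 CPM, with 54.8 in the double group), KIF2C, the microtubule depolymerase MCAK (-1.71, from 113 to 34.6, with 44.6), and SGO1, the protector of centromeric cohesin (-1.59). The highest 3 were NDEL1, a dynein regulator with many roles outside mitosis (0.44, from 87.4 to 119 CPM, with 72.1 in the double group), CENPC, the inner kinetochore protein that binds CENP-A nucleosomes (-0.04, from 17.7 to 17.1, with 18.7), and CLASP2, a microtubule plus-end protein (-0.10, from 63.2 to 59.0, with 48.0). CENPA and CENPC, which meet at the same nucleosome, were at 21.7% and 97.5% of control in shRRM2. In shRRM2/shp16 against shRRM2 13 of the 28 were higher, 6 lower and 9 not called, beside 31.9% higher and 29.1% lower over all tested genes. Against control 22 were lower, 1 was higher (BOD1, 0.11) and 5 were not called, beside 32.4% lower and 30% higher.

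The authors' deposited table gives its own comparison of shRRM2/shp16 with shRRM2, in FPKM (fragments scaled by transcript length and library size). Of the 41 genes, 7 are marked significant in the authors' deposited table, against 23.2% of genes with a value of at least 1 in either group. The authors' deposited table has 5 of these higher with both hairpins (CENPA, MIS18A, CENPF, MAD2L1 and CDCA8) and 2 lower (CENPT and CENPU). For CENPA the authors' deposited table has 6.82 and 11.3 FPKM, with a log2 fold change of 0.73 (q = 0.0374). CENPT has a log2 fold change of -0.64 in the authors' deposited table. All 7 were also called in the same direction from the counts, and 18 genes called from the counts, 14 higher and 4 lower, are not marked in the authors' deposited table.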

How the data were processed

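The authors deposited 1 file of read counts per library, by Ensembl gene, for 9 libraries. Their deposited table holds, per the file headers, a log2 RPKM value per library, and for shRRM2/shp16 compared with shRRM2 an FPKM per group, a log2 fold change, a p-value and a q-value. Libraries were ribosomal RNA-depleted and stranded, per the labels' protocols. TopHat2 2.0.9, Cufflinks 2.0.2, Cuffdiff and GRCh38 are named, with no role, per the submitters' processing notes. The strand setting of the counting is not given in the sources used here. The deposited log2 values equal log2(x + 1), with x the RPKM per base of length in place of per kilobase, which compresses fold changes. In 8 columns they matched the counts within 0.1% for all 5266 genes compared; in the shRRM2 c column 44 matched.

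Where a symbol had several identifiers, the one with most counts was kept. Counts were tested with edgeR 4.0.16 (R 4.3.3): filterByExpr, TMM scaling, all 9 libraries in 1 quasi-likelihood fit with 6 residual degrees of freedom, two-sided tests, Benjamini-Hochberg over 16561 genes holding 99.8% of counts, threshold 0.05. Tallies that name no gene stayed out of the fits. CPM uses TMM-scaled library sizes, and RPKM divides it by GENCODE release 29 exon length. Alternatives were RLE factors, DESeq2 1.42.0, other filters, only the 6 libraries compared, a replicate block, limma 3.58.1 on log2 RPKM (pseudocount 0.1 or as deposited) and each library left out. The fits were tested on simulated data.

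The members and lists were chosen with earlier results of these data known. Genes given in every library were the largest and smallest fall in shRRM2 within each role and the 4 highest and 4 lowest in shRRM2/shp16 against shRRM2. Of the wider list, the 3 lowest and 3 highest in shRRM2 were named. No molecular identifiers were used, so intervals from counts cover counting error only.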

Additional observations from a re-analysis of the deposited data

How the results depend on the processing

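In shRRM2 against control all 39 genes kept their call in the 15 count-based alternatives. In shRRM2/shp16 against shRRM2 569 of 585 gene and setting pairs kept theirs; the exceptions concerned 7 genes, of which CENPK gained a call without shRRM2 b (-0.27, adjusted p = 0.022) and the other 6 are named in the report. Against control, MIS12 alone lost its call in shRRM2/shp16. With the replicate block 10101, 10134 and 10388 genes were called, against 10079, 10116 and 10339 without it, and no member changed its call. The letters do not pair the libraries: 0 of 9 same-letter correlations exceeded 0.1 and 1 of 9 libraries correlated best with its own letter. With no filter, and with some libraries left out, SPC25 joined the genes called lower in shRRM2, for 40 in all.

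The deposited log2 values compress fold changes by construction, so medians from them are near 0. For shRRM2 against control, the median log2 fold change over the genes was -0.008261 on the values as deposited, -0.007679 without a filter (6124 genes called) and -0.008817 in the 8 matching columns, and -1.117 on log2(RPKM + 0.1) or -1.182 in the 8 matching columns. For shRRM2/shp16 against control these medians were -0.008957, -0.008856 and -0.008957, and -1.042 in both. For shRRM2/shp16 against shRRM2 they were 8.405e-05, 8.405e-05 and 0.001336, and 0.0286 on log2(RPKM + 0.1) of all 9 columns or 0.1365 of the 8 matching ones, beside 0.1143 from the counts. In that comparison 3 genes were called lower on the values as deposited, 3 without a filter and 3 in the 8 matching columns, and 5, 1 and 18 higher; on log2(RPKM + 0.1) 6 were higher in all 9 columns. BIRC5 changed sign there, at -0.0003717 as deposited, -0.0003717 without a filter and -0.001187 on log2(RPKM + 0.1), each with the shRRM2 c column that does not match its counts. Leaving that column out was chosen after seeing the data. The 39 tested kinetochore genes had at least 31 counts in every library.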

Other observations

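The column of shRRM2 replicate c in the authors' deposited table gave higher kinetochore levels than its count file. RPKM in this paragraph uses unscaled library totals, like the deposited columns, whereas the levels per length in the report use TMM-scaled sizes. For 33 of the 39 tested genes the RPKM in the authors' deposited table was over 1.1 times the value calculated from the counts, for 0 it was lower by that factor, and the median ratio was 1.4 (0.973 to 1.84). Of all tested genes, 4539 were over and 5639 under by that factor, with a median ratio of 0.983. For 37 of the 39 genes the table's value for replicate c exceeded those for replicates a and b. The share of all tested genes for which this held was not counted, so it cannot be called particular to these genes. CENPA had 3.07 and 3.47 RPKM in columns a and b of the authors' deposited table and 6.34 in column c, beside 3.81 from the counts of replicate c and a mean of 5.91 over the shRRM2/shp16 columns. CENPF had 13.3, 13.4 and 20.9 in the authors' deposited table, beside 13.9 from the counts of replicate c. CENPT had 7.30, 7.67 and 7.61 in the authors' deposited table, beside 7.46 from the counts. All results in the report from counts use the count file.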
